A study of Mus musculus with 6 samples.

Results

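Charcot-Marie-Tooth disease and related inherited neuropathies arise from genes that build compact myelin and from many others that work elsewhere in the Schwann cell or the neuron. The 31 genes described here belong to the second kind. They were chosen by name as causes of human inherited neuropathy that encode no myelin protein, and each symbol matched 1 of the 54309 genes in the files. Sorted by the nerve damage that mutations of the human gene are best known for, 10 belong to demyelinating, 4 to intermediate, 13 to axonal and 4 to sensory neuropathy. The sorting rests on general knowledge, but members and classes were chosen with earlier results of these data known. Several of these genes cause more than 1 form.

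RNA was taken from the left sciatic nerve of C57BL/6 mice aged 6 to 8 weeks, 24 h after sham surgery that exposed the nerve without cutting it. The female sham group held pools F1, F2 and F3 and the male sham group pools M1, M2 and M3, each pool joining nerves of 2 mice. The labels name no transgene or deletion in either group, the operation was done under isoflurane in all mice, and axotomized nerves were not analysed here. The nerve holds axons and glia but not the cell bodies of motor or sensory neurons, so RNA made and kept in those bodies is outside the sample.

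A peripheral nerve survives on the partnership of a long axon with the Schwann cells along it. Schwann cells sort receptors and membrane through endosomes whose lipid identity is set by phosphoinositides, and loss of that sorting is a classical route to demyelination. Axons depend on mitochondria that fuse and travel, on a continuous endoplasmic reticulum (ER) and on clearance of worn proteins, and genes for these tasks lead the axonal and sensory forms.

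Estimated read pairs per pool ranged from 55949876 to 78473057. Levels are given in TPM, a share of all transcripts in a pool that is corrected for transcript length and so allows genes to be compared. Xist was at 120 to 124 TPM in female and at 0.0245 to 0.557 TPM in male pools, matching the labelled sexes. Summed levels of 8 Schwann cell markers were 32492 to 41515 TPM, whereas the 5 neuron markers together reached 5.07 to 9.26 TPM and Rbfox3, Syt1 and Scn10a each averaged under 0.1 TPM. Pool F2 stood apart: 10 skeletal muscle markers summed to 3067 TPM in it and to 15.6 to 188 TPM in the other 5 pools. Adipocyte markers were highest in F3, at 1772 TPM against 880 to 1190 TPM elsewhere, and so were erythroid markers, at 17887 TPM against 2860 to 8016 TPM. Macrophage markers summed to 575 to 593 TPM in female and 692 to 787 TPM in male pools. The 4 neutrophil markers summed to 3292 to 5852 TPM over the pools, all taken 24 h after surgery. In bulk tissue, fewer cells of a type and less RNA per cell cannot be told apart.

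Of the 31 genes, 30 were expressed above the filter used for testing, a CPM (a share of the reads of a pool, not corrected for length) of at least 0.5 in at least 3 pools. Mean levels spanned 2.79 TPM for Ighmbp2 to 1325 TPM for Ndrg1, and the remaining gene, Gdap1, stayed at 0.131 to 0.304 TPM. Over all 31 the median was 53.4 TPM, compared with 15.1 TPM over the 16310 genes kept, and 25 of the 30 lay above the 50th percentile of those genes. Pools differed little: the coefficient of variation over 6 pools had a median of 6.22% among the 31 genes and 9.55% among all genes kept. These medians were not compared at matched levels, and the 31 genes had the higher median level. Among the 30 the coefficient was lowest for Wnk1 at 2.65% and highest for Retreg1 at 14.3%. In the order of mean levels, most neighbours overlapped in their ranges over pools. Clear steps, without overlap, separated for example Ndrg1 from Hint1, Vcp from Litaf, Wnk1 from Mme, Sord from Fgd4, and Ighmbp2 from Gdap1.

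**Figure D1:**
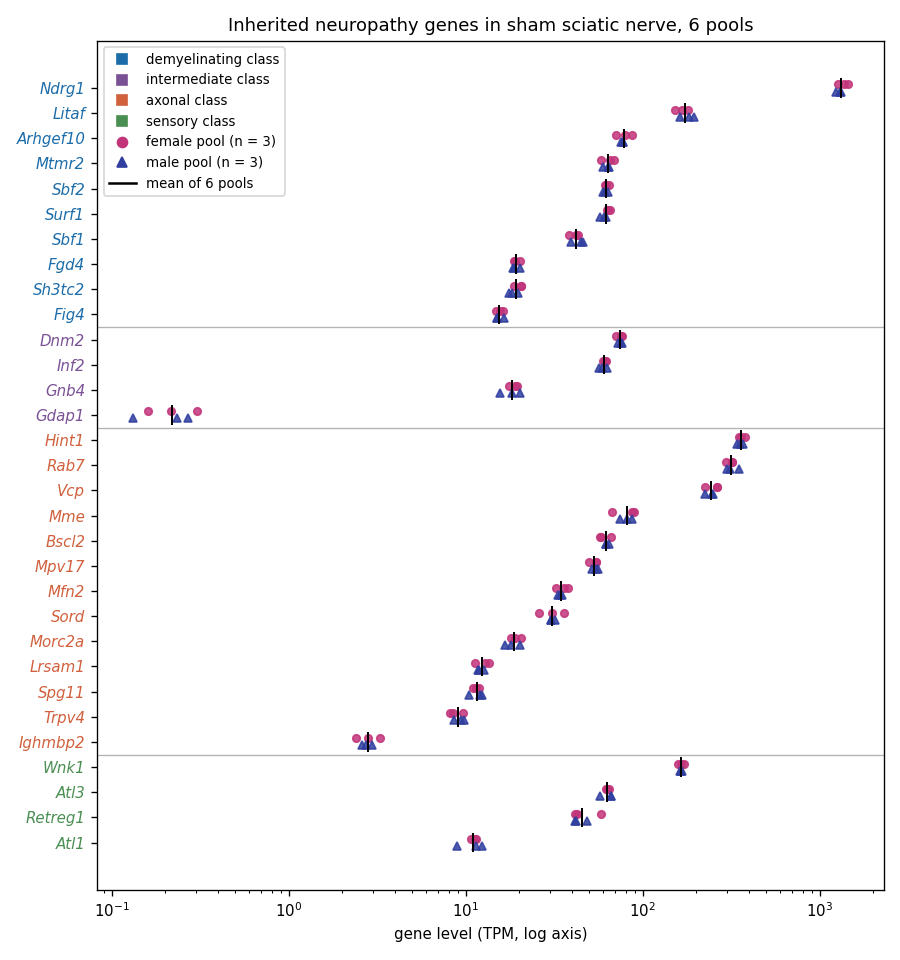
Level of each of the 31 genes in TPM (log axis) in 3 female pools (circles) and 3 male pools (triangles), with the mean of 6 pools as a black bar; gene names are coloured by class. Every class spreads over more than 10-fold, the pools of a gene lie close together, and Gdap1 stands alone at 0.131 to 0.304 TPM.

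Genes of demyelinating neuropathy were at a higher median level than those of axonal neuropathy when all transcripts of a gene were summed. The demyelinating median was 60.04, 63.6 and 62.9 TPM in the female pools and 58.4, 60.6 and 62.8 TPM in the male pools. The axonal median was 35.7, 38.0 and 35.9 TPM in the female pools and 35.2, 33.9 and 33.2 TPM in the male pools. The demyelinating median was above the axonal one in each pool, and the ratio was 1.74 ± 0.0902 (SD, n = 6 pools). The classes themselves overlapped widely, with 7 of 10 demyelinating genes above the axonal median and 4 of 13 axonal genes above the demyelinating one.

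The gap between the class medians narrowed when transcripts not annotated as protein coding were left out, by how much depending on the unit. With protein_coding transcripts alone, the demyelinating median was 36.6 ± 2.00 TPM and the axonal median 35.3 ± 1.70 TPM (SD, n = 6 pools each), a ratio of 1.04 ± 0.0840. It lay below 1 in F1, F2 and M1 and above 1 in F3, M2 and M3, so no order of these medians held over the pools. By CPM, where short records weigh less, the ratio was 1.70 from all transcripts and 1.46 ± 0.0554 (SD, n = 6 pools) from protein_coding ones, a measure added after values had been seen. Surf1 went from 61.7 to 29.2 TPM, Mtmr2 from 63.3 to 43.7 TPM and Sbf1 from 42.2 to 27.6 TPM, while Mfn2, the middle axonal gene, stayed at 34.7 TPM. The medians of the sensory class were 54.4 and 51.96 TPM and those of the intermediate class 39.3 and 32.3 TPM, all transcripts first. With 4 genes each, those medians rest on few values.

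**Figure D2:**
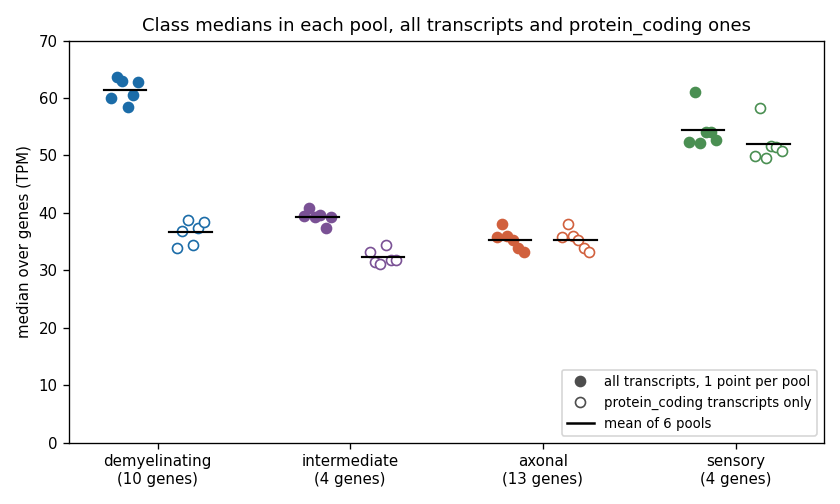
Median level over the genes of each class (TPM) in each of 6 pools, from all transcripts (filled) and from protein_coding transcripts alone (open); bars are means of 6 pools. The demyelinating median is 61.4 TPM from all transcripts and 36.6 TPM from coding ones, whereas the axonal median stays at 35.3 TPM.

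Ndrg1, a Schwann cell protein of lipid and membrane trafficking, was the most abundant gene of the set. The gene lies at chr15:66801166-66841835 on the minus strand. It was at 1271, 1364 and 1444 TPM in the female pools and 1321, 1242 and 1309 TPM in the male pools, at the 99.5th percentile of genes kept. The sexes overlapped. It made up 85.8% ± 1.21 (SD, n = 6 pools) of the summed TPM of the NDRG family, whose next member, Ndrg2, averaged 151 TPM.

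Mean levels of the endosomal genes ranged from 11.5 to 315 TPM. Rab7, the GTPase of late endosomes, was at 318, 319 and 294 TPM in the female and 311, 301 and 348 TPM in the male pools. Litaf, a small membrane protein of late endosomes, was at 181, 166 and 153 TPM in the female and 184, 163 and 195 TPM in the male pools, so the sexes overlapped for both genes. The recycling-endosome adaptor Sh3tc2 was much lower, at 18.6, 20.5 and 20.6 TPM in the female and 18.3, 17.5 and 19.8 TPM in the male pools. Lrsam1, a ubiquitin ligase of endosomal sorting, averaged 12.4 TPM and Spg11 (spatacsin), which acts in lysosome re-formation, 11.5 TPM. Among the genes kept, Sh3tc2 lay just above the middle of the order and Lrsam1 and Spg11 below it.

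Among the phosphoinositide genes, Mtmr2 removes the 3-phosphate of endosomal phosphoinositides, and Sbf1 and Sbf2 are catalytically inactive relatives that bind it. Mtmr2 was at 58.0, 64.9 and 68.9 TPM in the female and 59.6, 63.8 and 64.7 TPM in the male pools. Sbf2, at 62.0 ± 1.87 TPM, was close to Mtmr2, and Sbf1 was lower at 42.2 ± 2.92 TPM (SD, n = 6 pools each). The ranges of Sbf1, 38.3 to 45.9 TPM, and Sbf2, 59.6 to 64.7 TPM, did not overlap. Fig4, a phosphatase of the Pikfyve complex, averaged 15.5 TPM, next to its partners Vac14 at 17.3 TPM and Pikfyve at 15.1 TPM.

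Membrane and cytoskeleton regulators were at moderate levels. Arhgef10, a guanine nucleotide exchange factor, averaged 78.0 TPM, Dnm2, the GTPase that cuts membrane necks, 74.3 TPM and the actin formin Inf2 60.2 TPM. Fgd4, an exchange factor of Cdc42, averaged 19.3 TPM, whereas its target Cdc42 averaged 641 TPM. Gnb4, a beta subunit of heterotrimeric G proteins, was at 17.7, 19.4 and 19.0 TPM in the female and 20.2, 18.3 and 15.6 TPM in the male pools. Gnb2 averaged 361 TPM and Gnb1 311 TPM, so that Gnb4 made up 2.62% ± 0.335 (SD, n = 6 pools) of the beta subunit RNA.

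Mitochondrial genes ranged from moderate to barely detected. Surf1, an assembly factor of cytochrome c oxidase, averaged 61.7 TPM and Mpv17, an inner membrane protein, 53.4 TPM. Mfn2, a GTPase that fuses mitochondria, was at 35.7, 38.0 and 32.5 TPM in the female and 35.2, 33.9 and 33.2 TPM in the male pools, at a level close to that of Mfn1, 29.2 TPM. Mfn2 made up 50.3% to 56.9% of the pair in the 6 pools. Gdap1 (chr1:17215567-17234578, plus strand), of the outer membrane, was at 0.304, 0.215 and 0.160 TPM in the female and 0.235, 0.270 and 0.131 TPM in the male pools. These levels rest on 161 read pairs in all 6 pools, 15 to 36 per pool, and its paralog Gdap1l1 was as low, at 0.247 TPM.

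The ER genes were unequal. Atlastins are GTPases that fuse ER tubules, and Atl3 averaged 63.2 TPM against 11.02 TPM for Atl1. Atl3 held 70.5% ± 0.912 and Atl1 12.3% ± 0.673 of atlastin RNA (SD, n = 6 pools each). Bscl2 (seipin), needed for lipid droplet formation, averaged 61.8 TPM. Retreg1, a receptor of ER autophagy, was at 41.5, 57.8 and 42.5 TPM in the female and 41.6, 41.8 and 48.2 TPM in the male pools, so F2 was its highest pool. Its relatives Retreg2 and Retreg3 averaged 56.8 and 42.3 TPM.

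Among the other genes, Hint1, a purine phosphoramidase, averaged 359 TPM, Vcp, the ATPase that extracts ubiquitinated proteins, 244 TPM and the kinase Wnk1 164 TPM. Mme (neprilysin), a membrane endopeptidase, was at 67.2, 89.3 and 87.1 TPM in the female and 74.3, 86.8 and 81.9 TPM in the male pools. Sord (sorbitol dehydrogenase) averaged 30.9 TPM and Akr1b3, which makes the sorbitol that Sord removes, 203 TPM. Morc2a, a chromatin silencing ATPase, averaged 18.8 TPM, the cation channel Trpv4 9.05 TPM and the helicase Ighmbp2 2.79 TPM. Ighmbp2 was the only gene of the 30 below the 25th percentile.

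In 13 of 18 gene families the most abundant paralog was a gene of the set. As the families were listed here, Sbf1 and Sbf2 were kept apart from their relative Mtmr2, with no other gene beside them. A gene of the set had to lead that family, and without it the count was 12 of 17. Besides Ndrg1, Mfn2 and Atl3, these were Wnk1 with 97.4% of its family's TPM, Morc2a with 99.8%, Rab7 with 85.5%, Hint1 with 84.3% and Litaf with 82.0%. Lower shares were held by Sh3tc2 at 70.8%, Mtmr2 at 69.2%, Dnm2 at 68.9%, Arhgef10 at 67.2% and Sbf2 at 59.5%. Each share is of the genes listed for the family, and another list would change it. Mtmr2 was listed with Mtmr1 and Mtm1 alone. The atlastins were Atl1 and Atl3, both of the set, and Atl2. The 5 exceptions by TPM were the families led by Gnb2, Fgd2, Trpv2, Retreg2 and Gdap1l1. Gdap1l1 held 33.8% to 66.7% of its pair over the pools. In F2 Retreg1, at 57.8 TPM, was above Retreg2, at 55.7 TPM. By read pairs a gene of the set led 15 of the 18 families. Fgd2 averaged 35.8 TPM and Trpv2 23.1 TPM, above Fgd4 and Trpv4. These shares compare RNA and not protein, and reads shared by similar paralogs were divided by the authors' software.

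Transcript use was described from the annotation of each transcript. A retained_intron or nonsense_mediated_decay record has no full reading frame that would be kept, and a protein_coding record may still be incomplete. The share of a gene's TPM on protein_coding records had a median of 89.8% in the demyelinating, 82.7% in the intermediate, 96.3% in the axonal and 68.9% in the sensory class, and of 94.0% over 14243 genes kept that have such a record. It exceeded 90% in 10 of 13 axonal and in 5 of 10 demyelinating genes. By read pairs the classes were closer: the medians were 97.8% in the demyelinating and 99.2% in the axonal class, beside 98.2% over the same 14243 genes, and 7 of 10 demyelinating and 11 of 13 axonal genes exceeded 90%. By TPM the lowest shares were those of Atl1 at 43.6% ± 3.52, Wnk1 at 45.5% ± 3.03 and Surf1 at 47.3% ± 1.56 (SD, n = 6 pools each). By read pairs Surf1 held 53.2%, Atl1 57.1% and Wnk1 73.0%, the last above Mtmr2 at 63.2% and Gnb4 at 65.2%. Surf1, a small gene, carried 22.9% of its TPM on the nonsense_mediated_decay record Surf1-209, next to 29.3% on the coding Surf1-201. Mtmr2 carried 26.8% on the nonsense_mediated_decay record Mtmr2-203. In Fgd4, Sbf1 and Gnb4, retained_intron records held 28.8%, 33.1% and 39.9% of the TPM, and 19.1%, 4.84% and 33.5% of the read pairs.

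**Figure D3:**
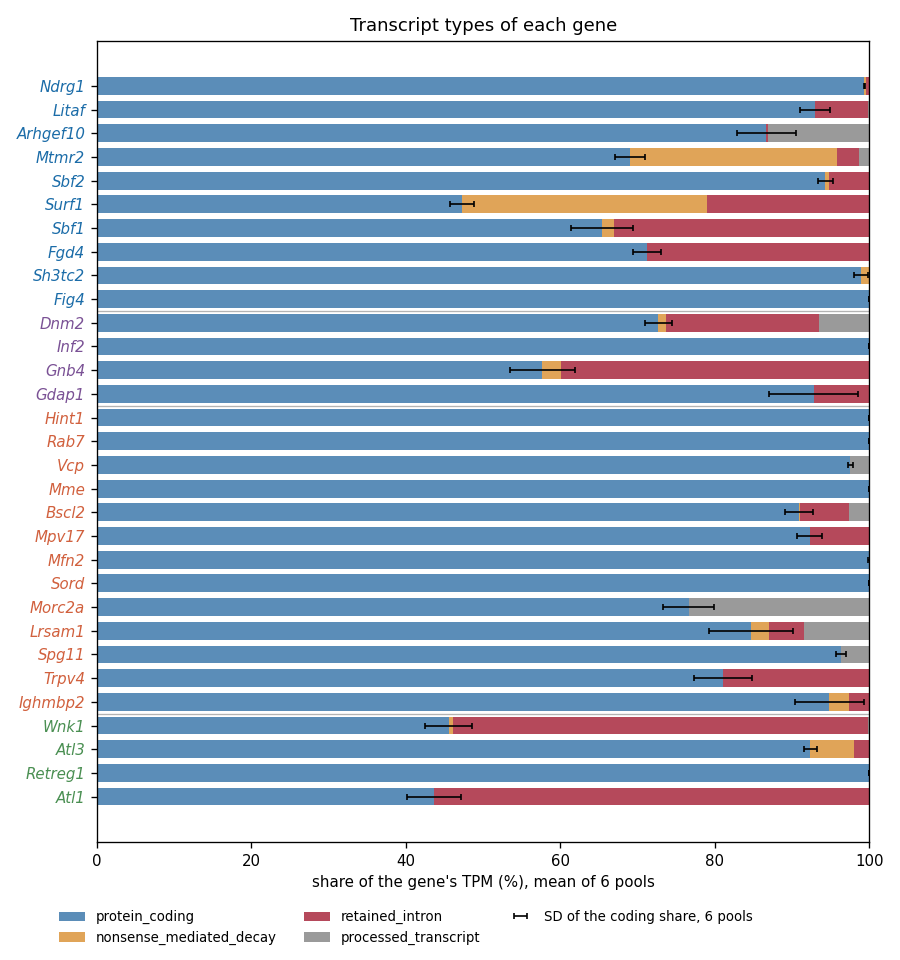
Share of each gene's TPM (%, mean of 6 pools) on protein_coding, nonsense_mediated_decay, retained_intron and processed_transcript records, with the SD of the coding share as a black bar; genes are ordered and coloured by class as in the plot of levels. By TPM, 10 of 13 axonal genes are above 90% coding and Atl1, Wnk1 and Surf1 lie at 43.6% to 47.3%; by read pairs, not drawn here, those 3 are at 57.1%, 73.0% and 53.2%.

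Genes differed in how much of their TPM a leading transcript held. The transcript with the highest mean TPM held a median of 72.6% of the gene over the 31 genes. This was below the 77.2% over the 14243 genes kept that have a coding record. The 31 genes had a median of 7 annotated transcripts and those 14243 a median of 5. The part of that number in the leading shares was not tested. By class the median leading share was 74.9% in the demyelinating, 47.2% in the intermediate, 83.7% in the axonal and 62.8% in the sensory class. Fig4 and Sord had 1 transcript each. Hint1-201 at 99.3%, Vcp-201 at 97.6%, Spg11-201 at 96.3%, Rab7-205 at 95.2%, Sbf2-205 at 93.1%, Gdap1-201 at 92.8% and Litaf-201 at 91.6% each held over 90%. Between 60% and 90% lay Mfn2-204 at 88.5%, Sh3tc2-201 at 86.2%, Retreg1-201 at 85.4%, Mpv17-201 at 83.7%, Ndrg1-201 at 81.4%, Atl3-202 at 74.9%, Bscl2-201 at 72.6%, Arhgef10-201 at 68.3% and Fgd4-206 at 65.2%.

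In the other 13 of the 31 genes the leading transcript held under 60%, beside 4473 of the 14243 genes kept with a coding record. Pairs of coding records shared the lead in Ighmbp2 (47.7% for Ighmbp2-201 and 47.1% for Ighmbp2-202), Inf2 (53.0% for Inf2-203 and 46.4% for Inf2-201) and Trpv4 (51.98% for Trpv4-201 and 28.8% for Trpv4-205). Others were Lrsam1-202 at 56.6% and Lrsam1-203 at 16.8%, Mme-205 at 47.2% and Mme-208 at 24.7%, Morc2a-202 at 45.5% and Morc2a-201 at 31.1%, and Sbf1-205 at 39.8% and Sbf1-210 at 17.1%. Mtmr2-208 held 44.3% of Mtmr2, and the longer coding record Mtmr2-201 only 2.56%. Gnb4-201 held 41.5% and the retained_intron record Gnb4-204 34.8%. Short records weigh more in TPM than in reads: Lrsam1-202 held 93.3% and Mme-205 75.3% of their gene's read pairs. The 316-base Ndrg1-203 held 17.5% of the TPM of Ndrg1 and 0.907% of its read pairs.

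Wnk1 and Atl1, both of sensory neuropathy, were the only genes of the 31 led by a retained_intron record in mean TPM. That is 6.45% of the set, beside 2.57% of all genes kept with a coding record. Within single pools, Atl1-204 led in 5 of the 6. In F2 the retained_intron record Gnb4-204, at 7.52 TPM, was above Gnb4-201, at 6.91 TPM. Wnk1-208 was at 75.4, 75.7 and 91.5 TPM in the female and 81.7, 84.3 and 91.1 TPM in the male pools. The coding Wnk1-224 was at 43.8, 45.4 and 37.8 TPM in the female and 42.9, 42.1 and 36.5 TPM in the male pools, lower in each pool. By read pairs the order turned, with 25.7% on Wnk1-208 and 45.0% on Wnk1-224. Atl1-204 averaged 4.35 TPM (39.3%) and the coding Atl1-201 3.37 TPM (31.1%), and by read pairs Atl1-204 held 10.7% and Atl1-201 54.3%. Wnk1-208 is a short record of 2 exons, where the coding Wnk1-224 has 26, and Atl1-204 has 6 exons in 815 bases. What each of these leading records holds that no other transcript of its gene does is a short stretch at its 5′ end. In the GRCm39 annotation Wnk1-208 spans the last 2 exons and shares 2907 of its 2934 bases with coding transcripts, and Atl1-204 shares 779 of 815. The stretches are printed because they are the only bases of these records found in no other transcript of the gene. Capitals mark them, 27 bases of Wnk1-208 (of chr6:119904176-119904222, minus strand) and 36 of Atl1-204 (of chr12:69992951-69993006, plus strand). Lower case marks the next 20 bases of the same exon.
Wnk1-208: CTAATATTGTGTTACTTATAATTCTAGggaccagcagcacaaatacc
Atl1-204: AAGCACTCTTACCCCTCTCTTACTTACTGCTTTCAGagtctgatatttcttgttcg

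In both lines the capitals end in AG directly before an exon shared with coding transcripts, as the last intron bases before an acceptor site do.

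Dnm2 RNA was split over coding forms that differ in small exons. Its main coding transcripts carry either an upstream or a downstream exon of 139 bases. Transcripts with the upstream exon summed to 32.3, 28.8 and 28.9 TPM in the female and 33.4, 33.6 and 30.3 TPM in the male pools. Those with the downstream exon summed to 23.3, 24.1 and 21.7 TPM in the female and 22.8, 20.01 and 24.4 TPM in the male pools, lower in each pool. The upstream exon thus held 57.9% ± 2.96 of the pair (SD, n = 6 pools), with 56.6% ± 1.88 in females and 59.2% ± 3.63 in males (SD, n = 3 pools each). A 12-base exon further along was carried by 57.2% ± 1.54 (SD, n = 6 pools) of the TPM of the 4 main coding forms. The leading form, Dnm2-202, combined the upstream exon with no 12-base exon and averaged 23.1 TPM. The next, Dnm2-211, combined the downstream exon with the 12-base exon and averaged 18.01 TPM.

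The exon pair, chr9:21390195-21390333 and chr9:21391703-21391841 on the plus strand of GRCm39, is wholly coding and shown because the forms are told apart by it. Capitals mark the 44 of 139 positions at which the exons differ, so they are 68.3% identical. The last line gives the 12-base exon in capitals with 9 intron bases on each side in lower case, chr9:21401945-21401974.
Dnm2 upstream exon: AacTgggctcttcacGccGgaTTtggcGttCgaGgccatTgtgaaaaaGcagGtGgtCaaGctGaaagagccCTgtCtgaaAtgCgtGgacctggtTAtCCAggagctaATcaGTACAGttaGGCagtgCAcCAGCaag
Dnm2 downstream exon: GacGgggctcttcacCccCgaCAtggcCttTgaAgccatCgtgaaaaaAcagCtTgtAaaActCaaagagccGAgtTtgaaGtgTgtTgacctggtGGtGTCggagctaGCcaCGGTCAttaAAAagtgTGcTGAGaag
Dnm2 12-base exon: ttctcaaagGGGGAGATCTTGgtaagtacc

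Of the 44 differing positions, 20 lie in the last 40 bases of the pair and 24 before them.

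Inf2 is known to end in alternative ways, one of which carries a lipid attachment signal that holds the formin at the ER. Inf2-203, whose coding sequence is annotated without a start, was at 32.5, 31.9 and 32.2 TPM in the female and 30.8, 29.2 and 35.1 TPM in the male pools. Inf2-201 was at 28.5, 30.1 and 27.4 TPM in the female and 27.9, 26.8 and 27.04 TPM in the male pools. Inf2-203 was above Inf2-201 in each pool by TPM, whereas by read pairs Inf2-201 led with 54.1% against 45.8%. Only 1 base of Inf2-203 lies in no other transcript. Inf2-201 ends its coding in a 57-base exon at chr12:112578982-112579038, and Inf2-203 skips that exon and ends in the last one. The last coding bases of each are printed with the stop codon in capitals, from chr12:112579005-112579037 and chr12:112581329-112581357, plus strand.
Inf2-201: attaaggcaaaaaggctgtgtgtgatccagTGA
Inf2-203: gcctcaggtccaggcccaaagccaagTGA

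The lines share the stop codon and otherwise come from different exons, so the records predict different carboxyl ends.

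Among transcripts of these genes, 2 stood out in a single pool, and both did so in F2. They were found by a search chosen after values had been seen, for transcripts with a mean of at least 0.5 TPM whose highest pool was at least 3 times the next. The search returned 2 of 139 transcripts of the 31 genes (1.44%) and 1.29% of all 49915 transcripts at that level, and F2 was the high pool for 235 of those 644. Retreg1-205 was at 0.425, 9.63 and 0.778 TPM in the female and 0.564, 0.350 and 0.494 TPM in the male pools. Mfn2-201 was at 1.296, 6.08 and 1.27 TPM in the female and 1.65, 0.514 and 1.43 TPM in the male pools. Mfn2-201 carries an 83-base exon at chr4:147987385-147987467 that the leading Mfn2-204 lacks, and both are annotated with the same 2271 coding bases. In contrast, the leading transcripts were not raised in F2: Retreg1-201 was at 40.2 TPM there and at 33.8 to 40.9 TPM in the other pools, and Mfn2-204 at 29.6 TPM and 29.3 to 32.3 TPM.

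F2 is the pool with muscle markers at 3067 TPM, and the part of muscle RNA in these values was not tested. Over all Retreg1 transcripts from internal starts the level was 0.425, 17.6 and 8.54 TPM in the female and 3.37, 4.03 and 7.57 TPM in the male pools, which is 1.02% to 30.5% of the gene. F3 and M3, with muscle markers at 56.3 and 49.5 TPM, were next to F2 in this measure, mainly through Retreg1-203. That transcript was estimated at 0 in F1 and at 2.81 to 7.62 TPM in the other 5 pools.

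The coding starts of the Retreg1 forms are shown because the level of the short forms differs most between pools. All are on the plus strand with the start codon in capitals: the first 30 coding bases of Retreg1-201 (480 codons, chr15:25843430-25843459), and the coding part of the first exon of Retreg1-203 (364 codons, chr15:25940978-25941036) and of Retreg1-205 (356 codons, chr15:25941295-25941329).
Retreg1-201: ATGgcgagcccggcgcccgaggagcacgcc
Retreg1-203: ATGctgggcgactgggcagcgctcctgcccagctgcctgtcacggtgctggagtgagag
Retreg1-205: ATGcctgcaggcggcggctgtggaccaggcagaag

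The internal starts lie near each other and join the same following exon at chr15:25964310-25964436, so Retreg1-203 and Retreg1-205 predict proteins that differ at the amino end and lack the first part of the long form.

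**Figure D4:**
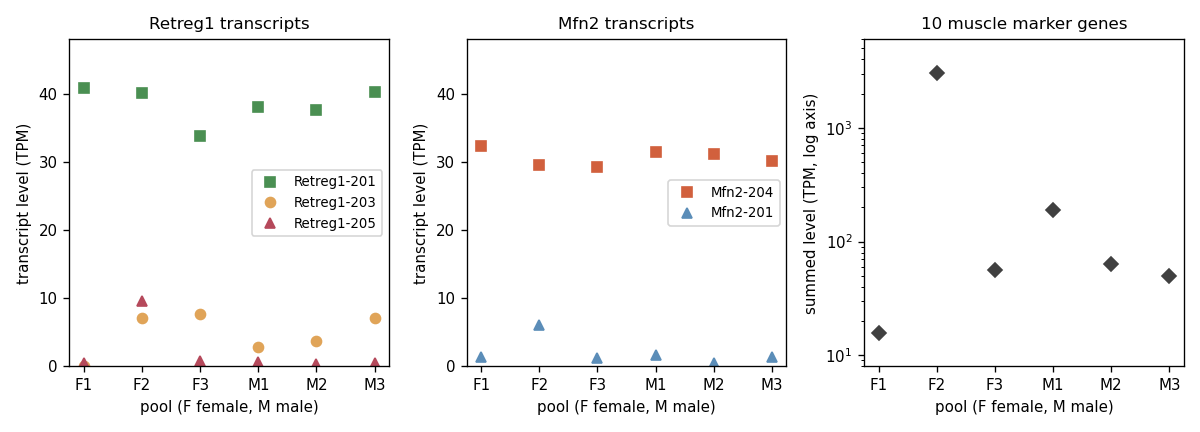
Level of Retreg1 and Mfn2 transcripts (TPM) and summed level of 10 muscle marker genes (TPM, log axis) in each pool. Retreg1-205 at 9.63 TPM, Mfn2-201 at 6.08 TPM and the muscle markers at 3067 TPM are highest in F2, whereas Retreg1-201 and Mfn2-204 are not.

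Female and male nerves were compared to ask whether any of these genes differed by sex 24 h after sham surgery. None of the 30 genes tested was called at an adjusted p below 0.1 by edgeR's quasi-likelihood test with Benjamini-Hochberg adjustment over 16310 genes, of which 0.0613% were called. None had an unadjusted p below 0.05 either, beside 6.11% of all genes. DESeq2 also called none of the 30 (0.978% of all genes called) and gave none an unadjusted p below 0.05 (6.33%). By edgeR the log2 fold changes, female over male, lay between -0.14 and 0.14 with standard errors of 0.058 to 0.13. All 30 of the 95% intervals held 0, and their bounds reached from a 0.758-fold to a 1.27-fold level in females. These bounds come from 30 separate intervals without adjustment and are not a limit of detection. A call needed an adjusted p below 0.1 over 16310 genes. With 3 pools per sex, differences inside or beyond the bounds could be missed. The part of the muscle markers of F2 and of the macrophage markers, higher in each male pool, in these values was not tested.

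The smallest p-values belonged to Sh3tc2, Inf2, Morc2a and Surf1. Sh3tc2 had a log2 fold change of 0.14 ± 0.077 (SE, adjusted p = 0.838, edgeR). It was followed by Inf2 at 0.11 ± 0.072 (adjusted p = 0.864), Morc2a at 0.079 ± 0.058 (adjusted p = 0.869) and Surf1 at 0.10 ± 0.080 (adjusted p = 0.880). Litaf had the most negative value, -0.14 ± 0.11 (adjusted p = 0.880). Surf1 was the only gene of the 30 (3.33%) whose TPM did not overlap between the sexes, at 62.5 to 64.9 TPM in females and 57.2 to 62.1 TPM in males, beside 11% of all genes kept. Surf1 (chr2:26803389-26807966, minus strand) overlaps Surf4 on the same strand in the annotation, so the division of reads between them is uncertain. Retreg1 was at a log2 fold change of 0.069, and without F2 it was at -0.068, so that pool set its sign. The median log2 fold change was 0.039 in the demyelinating and 0.018 in the axonal class, beside 0.0016 over all genes tested.

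**Figure D5:**
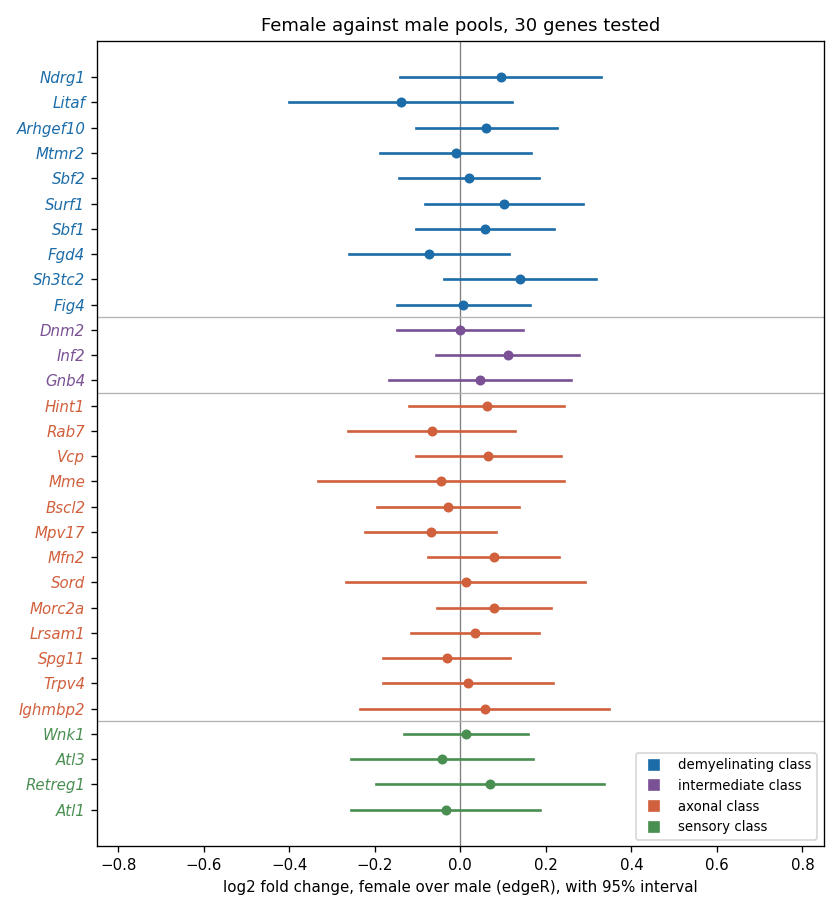
Log2 fold change, female over male, of the 30 genes tested (edgeR, points) with 95% intervals (lines), coloured by class. Every point lies between -0.14 and 0.14 and every interval crosses 0.

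No difference in transcript use between the sexes was detected in these genes. Of 28 genes with at least 2 transcripts above a CPM of 0.1 in at least 3 pools, none was called by edgeR's test of transcript use at an adjusted p below 0.1, beside 0.743% of all genes tested. None had an unadjusted p below 0.05, beside 5.07%. The smallest was that of Sbf1, at 0.0814 by the same edgeR fit. On simulated data without differences this test made nearly as many calls as on the real data, so a call from it would carry little weight.

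Other neuropathy genes and working partners were also without calls. None of 6 myelin protein genes was called. Pmp22, a compact myelin protein, was at 11479 TPM. The smallest p was that of Pmp2, a fatty acid binding protein of myelin, with a log2 fold change of -0.56 ± 0.17 (SE, adjusted p = 0.636, edgeR). None of 54 tested genes of a list of 59 further neuropathy genes was called, and their median level of 25.5 TPM over 59 was below the 53.4 TPM of the 31. Cox6a1, a subunit of cytochrome c oxidase, led that list at 455 TPM. Its smallest p were those of the small heat shock protein Hspb1, at 0.44 ± 0.12 (adjusted p = 0.587), and of the co-chaperone Dnajb2, at 0.14 ± 0.058 (adjusted p = 0.806). Of 14 working partners none was called, with Cdc42 at 641 TPM and the mitochondrial fission factor Fis1 at 217 TPM the highest. Nsfl1c, a cofactor of Vcp, had 0.10 ± 0.060 (adjusted p = 0.845) and Rilp, an effector of Rab7, 0.20 ± 0.14 (adjusted p = 0.864). Of 31 paralogs tested none was called.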

How the data were processed

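Stranded libraries of poly-A RNA were sequenced as paired ends by the authors, who trimmed reads with Trimmomatic 0.39 and quantified GENCODE transcripts with Salmon (1.5.2 in the submitters' processing notes, another version in the paper's supplement; the GENCODE release also differs between paper and file names). The deposited values are, for each of 140789 transcripts, an estimated count (fractional, of read pairs, not normalized further) and a TPM that the authors' software corrected for effective length. TPM was summed per gene; estimated counts were summed and rounded. Transcript names and types are those of the files; coordinates, exons and sequences are from GRCm39 with GENCODE M39, where some transcripts have other lengths. With shared bases, division of reads between transcripts is an estimate.

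The 16310 genes reaching 0.5 CPM in 3 or more pools were tested with edgeR 4.0.16 (TMM, robust quasi-likelihood fit, no covariate) in R 4.3.3, at a Benjamini-Hochberg adjusted p of 0.1 as in the paper. Transcript use was tested with edgeR's diffSpliceDGE. DESeq2 1.42.0, RLE factors, other filters, length offsets, thresholds, a replicate block and each pool left out were alternatives. The common biological coefficient of variation was 0.154. Both tests were checked on simulated data. Estimated read pairs per pool are given above. The p-values weigh the sex difference against the spread between pools of separate mice, an estimate that draws on all genes tested. The smallest p that an exact permutation of 3 against 3 pools allows is 0.1. Figures and tables were made in Python 3.11.15.

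All 31 genes are named, with each gene's leading transcript and the next where the first holds under 60%; of other lists the 2 highest genes and the 2 with the smallest p, and the top gene of each paralog family. Some genes that this rule names are not reported here. Members, classes and lists were chosen with earlier results of these data known. No gene set was tested.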

Additional observations from a re-analysis of the deposited data

How the results depend on the processing

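No gene of the set was called in any of 13 fits of the sex difference, and the lowest adjusted p over them was 0.535, for Sh3tc2 without male replicate 3. Without that pool Sh3tc2, Inf2 and Surf1 had an unadjusted p below 0.05, the most of any fit. With length offsets the log2 fold change of Inf2 went from 0.11 to 0.030. That of Sh3tc2 went from 0.14 to 0.098 and that of Surf1 from 0.10 to 0.082. Over all genes, the 10 calls became 159 with DESeq2, 49 with no filter on low counts, 4 with a CPM of at least 1 in all 6 pools, and 3 to 8 when single pools were left out. Calls of transcript use over all genes went from 89 to 38 with the stricter transcript filter, and to between 75 and 155 without single pools, and none was a gene of the set. Retreg1, at a log2 fold change of 0.069, ranged from -0.068 (without female replicate 2) to 0.15 (without female replicate 1).

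With the replicate number as a block, 5 genes were called for level and 55 for transcript use over all genes, none of the set. Same-numbered female and male pools had correlations of -0.18, -0.13 and -0.10 in their deviations from the sex means, so the pools share only a number; no pool correlated best with its own number.

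The ratio of the demyelinating to the axonal median, 1.74, was 1.04 from protein_coding transcripts alone, 1.46 from the CPM of those transcripts (added after seeing the data), 1.38 with sensory genes joined to the axonal class, 1.62 as a ratio of geometric means, and 1.71 to 1.76 without single pools. The following shares are medians over genes in each pool, averaged over pools, whereas the report gives medians over genes of the mean share. The median share of the main transcript, 71.8%, was 83.7% by read pairs and 80.6% within protein_coding transcripts. It went from 74.7% to 84.3% and 84.5% in the demyelinating class and from 83.8% to 91.0% by read pairs in the axonal class. The median share in a paralog family, 67.5%, was 69.8% by read pairs. Depth is thinnest for Gdap1, with 15 to 36 read pairs per pool.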
